A study of Mus musculus with 8 samples.

Results

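Transcripts of 40 genes that fold proteins in the endoplasmic reticulum (ER), carry them into it, remove those that fail, or sense its load were measured in mouse lymphoma cells with and without a short hairpin RNA (shRNA) against Crebbp. The genes were chosen by name as parts of this pathway, with earlier results of these data already known. The 4 branches held 15 chaperones and folding enzymes and 8 genes of ER-associated degradation. The others were 10 genes of translocation and signal peptide removal, and 7 stress sensors and their effectors. All 40 were found in the table of 25477 loci, and all 40 were among the 11417 whose mean reached 1 FPKM (fragment counts scaled to transcript length and to the size of the library), the loci that entered the tests. The locus of highest mean was taken for each symbol.

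The cells were B220+ GFP+ lymphoma cells from mouse spleen, B220 being a surface marker of B cells and GFP a fluorescent reporter protein. Cells of 4 libraries carried a scramble shRNA as the control and cells of 4 libraries carried shCrebbp, and RNA longer than 200 nt was sequenced after removal of ribosomal RNA. The library names of all scramble libraries begin with AO227, those of shCrebbp libraries 1 and 2 with AO228, and those of shCrebbp libraries 3 and 4 with AO229. The labels do not say what the prefixes stand for, nor the genotype, strain or age of the mice, nor which animals gave which library. P-values therefore speak of the spread among these libraries, which may be technical. No prefix holds both groups, so prefix and group cannot be told apart.

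Secreted and membrane proteins enter the ER through the Sec61 channel, where signal peptidase trims them and chaperones such as BiP (Hspa5) fold them. When unfolded protein builds up, the sensors IRE1 (Ern1), ATF6 and PERK (Eif2ak3) start the unfolded protein response. ATF6 and the XBP1 protein made after IRE1 splicing raise chaperone and degradation genes, while PERK slows translation and raises ATF4, which in turn induces Ddit3, Ppp1r15a and Trib3. B cells enlarge this system when they become antibody-secreting plasma cells. The protein of Crebbp (CBP) acetylates histones and serves many transcription factors as a coactivator, and the comparison asks how these genes stood with and without the hairpin.

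Sequences just upstream of the start site show which members carry the response elements this pathway is known for. RefSeq windows from 250 bases before to 50 bases after the start site (assembly GRCm38.p6) were at hand for 32 of the 40 genes, in 33 windows. Windows were not at hand for Atf6, Derl1, Hyou1, Manf, Sec11c, Sec61a1, Spcs3 and Ssr2. The ER stress element (ERSE, CCAAT, then 9 bases of any kind, then CCACG, known to be bound by ATF6 together with NF-Y) was searched on both strands. It was in the windows of 9 of the 32 genes, 7 chaperone genes (Hspa5, Hsp90b1, Calr, Canx, Creld2, Dnajc3 and Pdia6) and the degradation genes Derl3 and Syvn1, and was there in 2 copies in Hsp90b1. Of all 32851 windows in the table, 39 held it, or 0.119%. No window of a translocation or sensor gene held it. The related element ERSE-II (ATTGG, then 1 base, then CCACG) was in the windows of Herpud1 and Dnajb11, against 0.0365% of all windows.

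The XBP1 element TGACGTGG was in no member window and in 0.676% of all. The cyclic AMP response element TGACGTCA (CRE), the site named for the factor CREB, was in that of Ppp1r15a alone and in 1.79% of all. The CEBP-ATF response element TGATGNAA (CARE), known as an ATF4 site, was in those of Herpud1 and Trib3 and in 3.97% of all. In member windows no motif overlapped another. A match is a match of letters, and whether a factor bound there was not measured.

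Shown are the 250 bases before the start site of 3 ERSE genes whose levels did not overlap between the groups (Hspa5, Hsp90b1 and Calr), of Herpud1, which holds an ERSE-II and a CARE, and of Ppp1r15a, which holds the CRE, and a stretch of 30 bases around the CARE of Trib3, which lies after the start site. Capitals mark the fixed bases of each motif, on either strand, and each sequence reads 5′ to 3′ along its gene. In the order shown they lie at chr2:34771840-34772089 (plus strand), chr10:86705445-86705694 (minus), chr8:84846932-84847181 (minus), chr8:94386179-94386428 (plus), chr7:45526269-45526518 (minus) and chr2:152344028-152344057 (minus).
Hspa5: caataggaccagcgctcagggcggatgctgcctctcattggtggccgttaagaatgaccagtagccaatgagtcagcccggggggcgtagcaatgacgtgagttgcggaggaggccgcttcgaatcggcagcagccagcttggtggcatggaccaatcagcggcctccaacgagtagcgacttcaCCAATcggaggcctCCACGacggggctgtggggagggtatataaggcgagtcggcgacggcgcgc
Hsp90b1: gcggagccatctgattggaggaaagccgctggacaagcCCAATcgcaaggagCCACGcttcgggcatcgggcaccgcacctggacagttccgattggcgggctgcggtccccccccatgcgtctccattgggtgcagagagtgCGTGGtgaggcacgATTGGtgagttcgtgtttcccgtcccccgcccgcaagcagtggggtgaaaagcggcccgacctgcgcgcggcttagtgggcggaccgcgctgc
Calr: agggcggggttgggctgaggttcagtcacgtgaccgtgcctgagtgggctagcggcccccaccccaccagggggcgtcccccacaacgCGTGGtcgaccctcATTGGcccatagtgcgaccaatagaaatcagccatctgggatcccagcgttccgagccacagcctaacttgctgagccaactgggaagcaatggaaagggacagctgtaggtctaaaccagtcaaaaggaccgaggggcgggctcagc
Herpud1: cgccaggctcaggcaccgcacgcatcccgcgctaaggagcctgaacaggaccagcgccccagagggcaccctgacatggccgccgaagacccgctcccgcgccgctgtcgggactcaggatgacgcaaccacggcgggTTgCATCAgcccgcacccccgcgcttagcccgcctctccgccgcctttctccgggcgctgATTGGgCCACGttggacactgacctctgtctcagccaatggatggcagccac
Ppp1r15a: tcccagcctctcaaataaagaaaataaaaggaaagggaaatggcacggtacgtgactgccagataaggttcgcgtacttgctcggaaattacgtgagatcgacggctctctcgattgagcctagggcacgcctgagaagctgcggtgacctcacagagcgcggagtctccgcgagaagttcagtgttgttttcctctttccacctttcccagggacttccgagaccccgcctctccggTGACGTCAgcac
Trib3: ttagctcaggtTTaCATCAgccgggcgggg

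**Figure D1:**
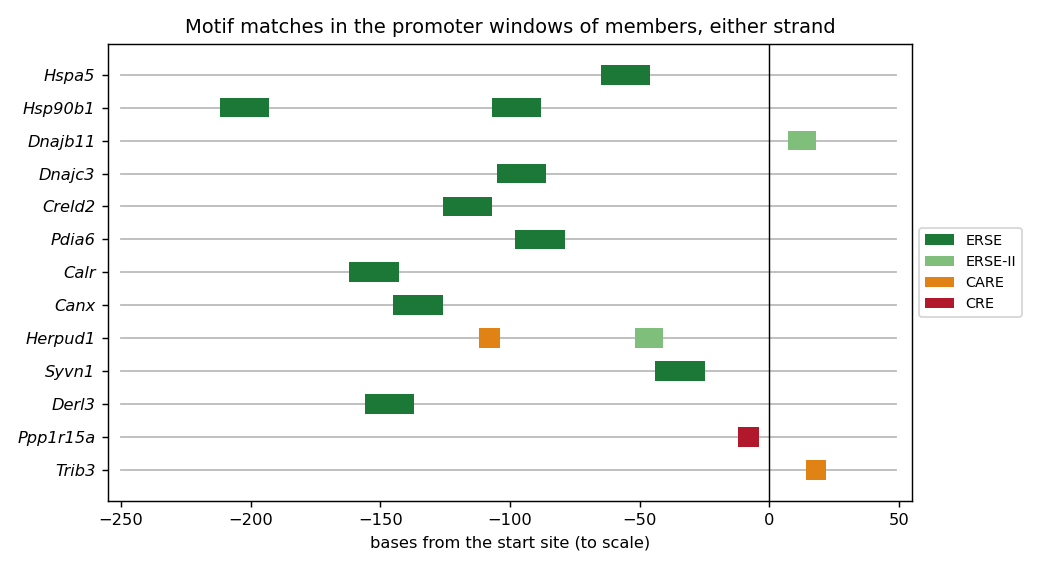
Positions of motif matches (coloured bars, to scale) in the windows of the 13 members that hold one, in bases from the start site at 0, with the grey line the span of the window. The ERSE matches (dark green) of 9 genes all lie before the start site, and those of Dnajb11 (ERSE-II) and Trib3 (CARE) after it.

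The first check is Crebbp itself. It measured 25.9 ± 5.54 FPKM in scramble and 22.0 ± 3.66 FPKM in shCrebbp (SD, n = 4 each), with ranges of 21.3 to 33.7 and 18.9 to 26.6 that overlap (exact permutation p = 0.314, two-sided). The transcript level thus did not separate the libraries by their labels, and protein was not measured. The share of loci listed at 0, which moves with depth, was 33.2 to 51.8% over the 8 libraries, and absolute depth is unknown since no read counts were given. B cell markers were high throughout, with 10 genes summing to 2580 to 3513 FPKM, while 9 T and NK cell genes summed to 20.7 to 46.3, 7 neutrophil genes to at most 4.44 and 6 erythroid genes to 3.01 to 25.5 FPKM. The 15 macrophage genes summed to 372 to 687 FPKM, nearly all of it Ctss and the locus of Cd68, which is merged with other genes, and the defining marker Lyz2 reached at most 6.82.

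Chaperone genes were mostly lower on average with shCrebbp, among them the BiP co-chaperone Dnajb9, Hsp90b1 and Hspa5, whose groups did not overlap. Degradation genes had a median log2 difference of -0.24, but none separated the groups. Their median was 0.01 with the AO228 libraries alone. Over the 40 genes the mean was lower in shCrebbp for 33, beside 48% of all loci tested, and the median log2 difference was -0.23 beside 0.01 over all loci. No member passed limma's test after Benjamini-Hochberg adjustment over all loci at 0.05, nor did any other locus (0%), the smallest adjusted p being 0.521. At an unadjusted limma p under 0.05, 9 members were lower and 0 were higher, beside 2.93% and 2.08% of all loci. In 6 members every shCrebbp library was below every scramble library, beside 1.74% of all loci, and no member showed the reverse, beside 1.58%. The members were chosen with earlier results of these data known, so these counts describe the list and do not test it. In sorted but bulk cells, fewer cells of a type and less RNA per cell cannot be told apart.

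A few libraries held most of the extreme values. Scramble 1 held the highest level of 20 of the 40 members, and shCrebbp 3 and 4, the AO229 libraries, held the lowest of 13 and 9. Without scramble 1 the mean was lower for 29 of 40 with a median of -0.13, and without shCrebbp 3 for 28 with a median of -0.13. Against the same scramble libraries, the AO228 libraries were lower for 25 of 40 (48.2% of all loci) with a median of -0.09, and the AO229 libraries for 40 of 40 (47.6% of all loci) with a median of -0.35. These comparisons share their controls. At an unadjusted limma p under 0.05, the AO228 libraries alone against scramble gave 5 members lower and 1 higher, beside 5.62% and 4.07% of all loci, and the AO229 libraries alone gave 14 lower and 0 higher, beside 5.73% and 3.74%. Both AO229 libraries lay below every control in 18 members, beside 11.3% of all loci.

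**Figure D2:**
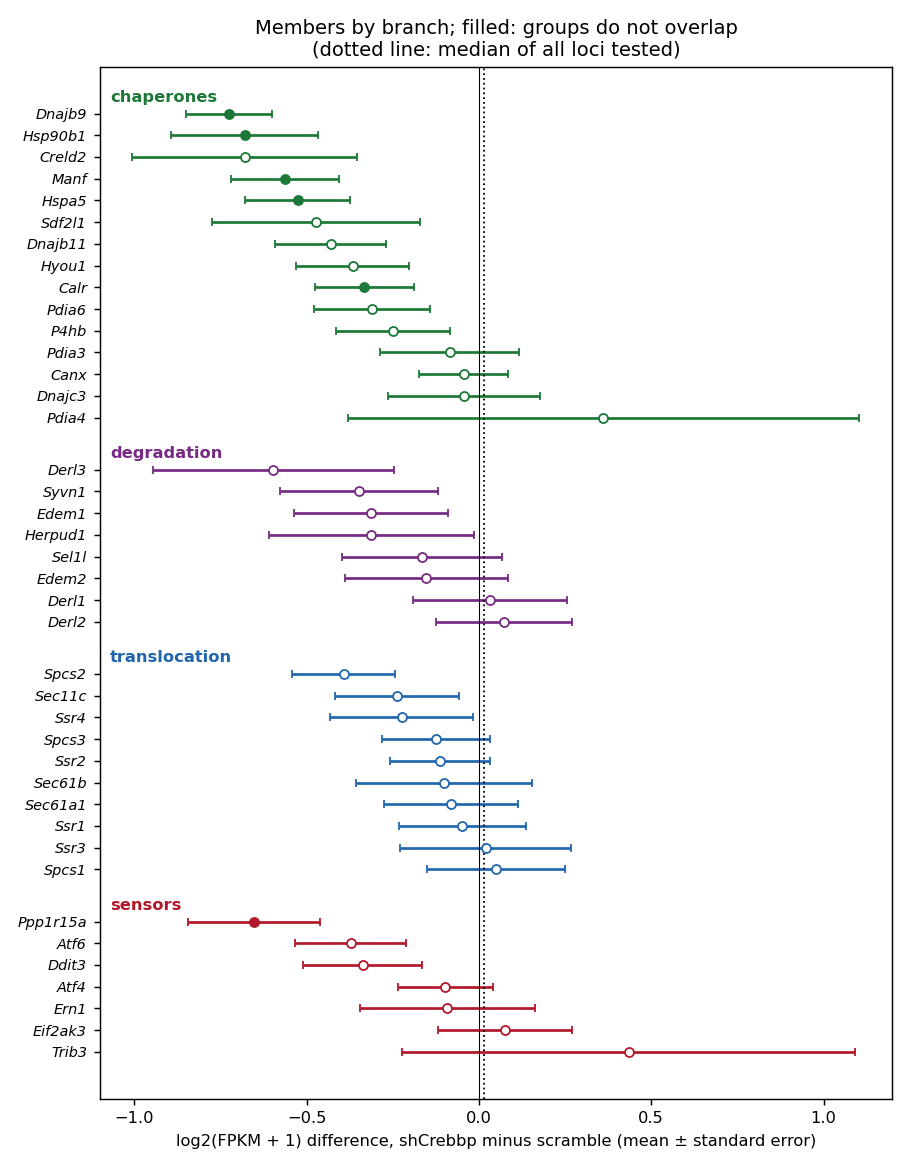
Difference in mean log2(FPKM + 1), shCrebbp minus scramble, with its standard error from limma, for each of the 40 members by branch (4 libraries a group); filled points are members whose groups do not overlap, and the dotted line is the median of all loci at 0.01. Chaperones reach furthest to the left, down to -0.73 for Dnajb9, and Pdia4 and Trib3 have the widest errors.

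Among the 15 chaperones and folding enzymes 14 were lower on average, with a median difference of -0.37 on the log2 scale. Of these, 6 reached an unadjusted limma p under 0.05, beside 2.93% of all loci. In 5 the groups did not overlap, beside 1.74% of all loci in that direction. Hspa5 encodes BiP, the main Hsp70 of the ER. It measured 892, 817, 881 and 789 FPKM in scramble 1 to 4 and 659, 622, 518 and 553 in shCrebbp 1 to 4. Every shCrebbp library was below every scramble library, and the AO229 libraries were lowest. The difference was -0.53 ± 0.15 (log2, SE; limma adjusted p = 0.915; exact permutation p = 0.0286, the smallest that 4 against 4 libraries allow).

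Dnajb9 (ERdj4), a co-chaperone of BiP that is a known target of XBP1, had the smallest p of all members. Its levels were 90.8, 95.3, 98.4 and 84.0 FPKM in scramble and 60.6, 59.6, 51.2 and 50.3 in shCrebbp. The groups lay well apart and each varied little (log2 difference -0.73 ± 0.12 SE, limma adjusted p = 0.521). No exact match to the ERSE was in its window, and whether a factor bound there was not measured.

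Hsp90b1, the ER form of Hsp90 (GRP94), measured 263, 139, 156 and 163 FPKM in scramble and 122, 125, 94.2 and 96.2 in shCrebbp. Scramble 1 stood above the other control libraries, and the difference of -0.68 ± 0.21 (log2, SE; limma adjusted p = 0.915) was -0.48 without it. Manf, a secreted stress factor held in the ER by BiP, measured 49.7, 49.2, 43.2 and 35.9 FPKM in scramble and 32.3, 34.2, 26.5 and 26.0 in shCrebbp. Its groups did not overlap either, with a difference of -0.56 ± 0.16 (log2, SE; limma adjusted p = 0.915). Calr encodes calreticulin, a lectin chaperone for glycoproteins, and its locus is merged with other genes, so the value is not of Calr alone. That locus measured 364, 359.6, 363 and 381 FPKM in scramble and 351, 254, 294 and 274 in shCrebbp, so shCrebbp 1 lay close to the controls (log2 difference -0.33 ± 0.14 SE, limma adjusted p = 0.915).

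**Figure D3:**
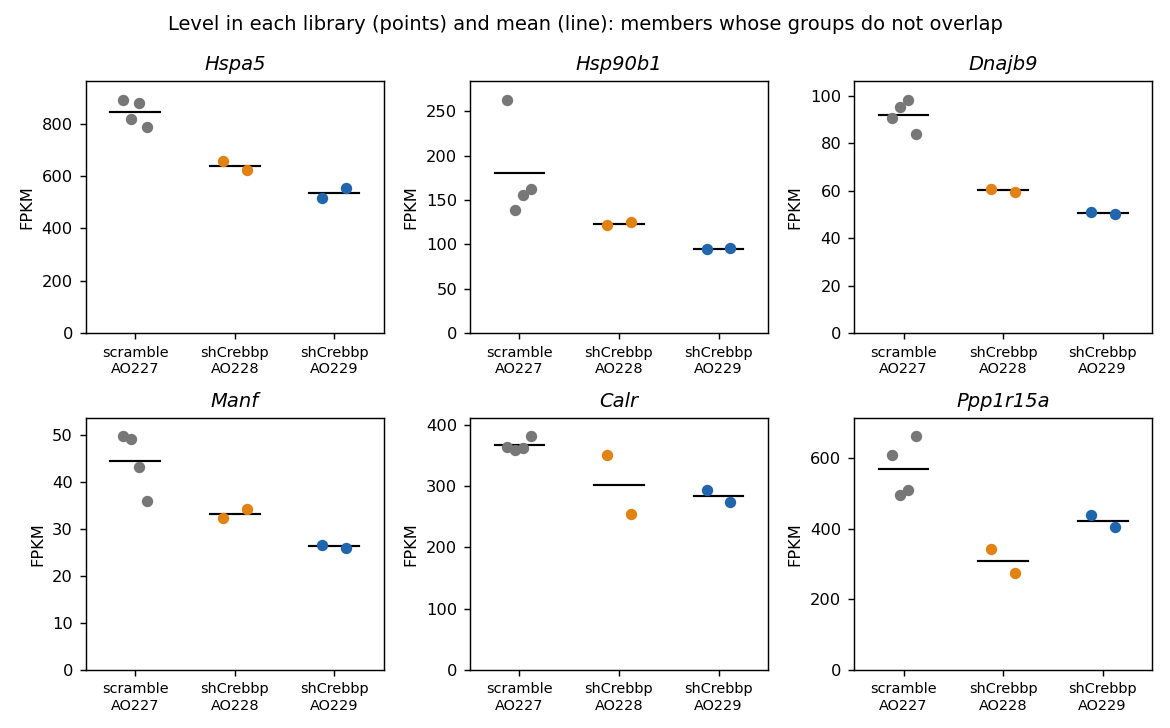
FPKM in each library (points) and group mean (lines) for the 6 members whose shCrebbp libraries all lie below all scramble libraries, by library name prefix (4, 2 and 2 libraries). Hspa5 lies at 789 to 892 in scramble and at 518 to 659 in shCrebbp. In Ppp1r15a the AO228 libraries are the lowest. In Calr the prefixes overlap, and in the other chaperones shown the AO229 libraries are the lowest.

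The other chaperones overlapped. Dnajb11 (ERdj3), another BiP co-chaperone, measured 39.9 to 57.0 FPKM in scramble and 29.8 to 41.4 in shCrebbp, with a difference of -0.43 ± 0.16 (log2, SE; limma adjusted p = 0.915; exact permutation p = 0.0857). Creld2 and Sdf2l1, small ER stress-induced genes, differed by -0.68 and -0.47 on the log2 scale, with scramble 1 at 82.8 and 46.8 FPKM the highest library in each. Without scramble 1 they differed by -0.39 and -0.28. Hyou1, an exchange factor for BiP, differed by -0.37, and the disulphide isomerases Pdia6, P4hb and Pdia3 by -0.31, -0.25 and -0.08. The P4hb locus is merged with Arhgdia. Canx, the membrane-bound partner of calreticulin, and Dnajc3, an inhibitor of PERK, each differed by -0.04, and the interval of Canx (95%) ran from -0.34 to 0.25.

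Pdia4 alone among the chaperones had a higher mean in shCrebbp. Its locus, merged with the microRNA gene Mir704, measured 161, 96.1, 164 and 139 FPKM in scramble and 63.8, 1006.5, 84.7 and 175 in shCrebbp. The single value of shCrebbp 2 set the direction, as the log2 difference was 0.36 ± 0.74 (SE) with it and -0.48 without it.

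Degradation genes were lower for 6 of 8, with a median of -0.24, and none passed an unadjusted p of 0.05 or separated the groups. Without scramble 1 the median was -0.07. Derl3, a channel-like protein of retrotranslocation known from secretory cells, measured 38.9, 16.8, 25.1 and 15.4 FPKM in scramble and 23.4, 15.5, 8.23 and 14.7 in shCrebbp. The groups overlapped, with scramble 1 highest and shCrebbp 3 lowest (log2 difference -0.60 ± 0.35 SE, limma adjusted p = 0.915; -0.34 without scramble 1).

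Syvn1 (HRD1), the ubiquitin ligase of the pathway, measured 55.7, 50.6, 31.4 and 48.4 FPKM in scramble and 33.7, 50.7, 33.8 and 27.7 in shCrebbp. Edem1, which picks out misfolded glycoproteins, measured 55.5, 33.2, 31.1 and 31.8 FPKM and 33.4, 36.1, 22.7 and 27.2. Both sets overlapped, at log2 differences of -0.35 ± 0.23 and -0.31 ± 0.22 (SE; limma adjusted p = 0.915 for each). Without scramble 1 the value for Edem1 was -0.12. Sel1l, the partner of HRD1, and Edem2 differed by -0.16 and -0.15, while Derl1 and Derl2 differed by 0.03 and 0.07.

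Translocation genes were lower for 8 of 10, with a median of -0.11. Without scramble 1, 6 of 10 were lower and the median was -0.04. Spcs2, a subunit of signal peptidase, was the only member of the branch at an unadjusted p under 0.05, beside 2.93% of all loci lower. It measured 23.5, 19.3, 23.8 and 19.7 FPKM in scramble and 13.7, 15.8, 19.4 and 16.2 in shCrebbp, where shCrebbp 3 just overlapped the lowest control (log2 difference -0.39 ± 0.15 SE, limma adjusted p = 0.915).

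The catalytic subunit Sec11c of the same enzyme measured 128, 97.5, 110.2 and 93.8 FPKM in scramble and 123, 84.1, 75.3 and 85.9 in shCrebbp. Ssr4, a subunit of the translocon-associated complex TRAP, measured 120.1, 76.5, 105 and 73.7 FPKM and 104, 66.3, 70.8 and 77.9. Their differences of -0.24 ± 0.18 and -0.22 ± 0.21 (log2, SE) were within the spread of the libraries. The channel subunits Sec61a1 and Sec61b differed by -0.08 and -0.10, and Ssr1, Ssr2, Ssr3, Spcs1 and Spcs3 by -0.12 to 0.05. Sec61a1 was almost level in shCrebbp, at 43.7 to 46.9 FPKM, inside a scramble range of 32.4 to 63.4. The Spcs1 locus spans 121806 bases and also overlaps Gnl3, Smim4, Glt8d1 and Pbrm1, so its value cannot be read as Spcs1 alone.

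Of the 7 sensors and effectors 5 were lower on average, with a median of -0.10. An unadjusted p under 0.05 was reached by 2, beside 2.93% of all loci lower. In 1 the groups did not overlap, beside 1.74% of all loci in that direction. Ern1, the sensor that splices Xbp1 RNA, was low throughout, at 6.56, 4.90, 3.91 and 3.10 FPKM in scramble and 5.80, 4.72, 3.03 and 3.44 in shCrebbp. Its groups overlapped nearly fully (log2 difference -0.09 ± 0.25 SE). Eif2ak3 (PERK) measured 98.4, 94.9, 88.2 and 63.0 FPKM in scramble and 98.9, 113, 78.4 and 73.3 in shCrebbp, and also overlapped (0.08 ± 0.19). Atf6 measured 23.1, 21.1, 26.3 and 18.04 FPKM in scramble and 15.7, 14.03, 19.2 and 18.4 in shCrebbp. Its AO228 libraries lay below all controls and its AO229 libraries among the lowest of them (log2 difference -0.37 ± 0.16 SE, limma adjusted p = 0.915, exact permutation p = 0.0857).

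Downstream of PERK, the transcription factor gene Atf4 measured 444, 538, 472 and 516 FPKM in scramble and 491, 445, 438 and 464 in shCrebbp, a difference of -0.10 ± 0.14 (log2, SE) within the spread. ATF4 is controlled largely in translation, which these data do not show, and its locus here also holds Mief1. Ddit3 (CHOP), a factor tied to cell death under stress, measured 146, 119, 130.4 and 166 FPKM in scramble and 85.3, 134, 113 and 113 in shCrebbp, with shCrebbp 2 inside the control range (-0.34 ± 0.17, limma adjusted p = 0.915).

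Ppp1r15a (GADD34), which ends the PERK arrest by bringing a phosphatase to eIF2alpha, was the sensor-branch member whose groups did not overlap. It measured 609, 496, 509 and 661 FPKM in scramble and 341, 273, 438 and 405 in shCrebbp. The log2 difference was -0.65 ± 0.19 (SE; limma adjusted p = 0.915; exact permutation p = 0.0286), and the AO228 libraries were the lowest. Its locus of 31398 bases runs 28045 bases beyond the gene and over Plekha4 and Tulp2 on the opposite strand, and whether counting used strand is not given in the sources used here.

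Trib3, a pseudokinase gene induced by ATF4, showed opposite values in the shCrebbp libraries. It measured 6.21, 2.06, 3.05 and 6.99 FPKM in scramble, 16.6 and 14.7 in the AO228 libraries, and 2.14 and 1.76 in the AO229 libraries. The AO228 libraries lay above every control and the AO229 libraries at the level of the lowest, so the group difference of 0.43 ± 0.66 (log2, SE) describes neither.

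The shCrebbp libraries of the AO228 and AO229 prefixes were also compared with each other. In AO229, 33 of 40 members were lower than in AO228 (49.1% of all loci), with a median log2 difference of -0.33. Trib3 was the only member to pass, lower in AO229 by a log2 difference of -2.49 ± 0.45 (SE; limma adjusted p = 0.0443), beside 0.613% of all loci lower and 0.666% higher. This call was lost without any 1 of the libraries scramble 1, scramble 3 and shCrebbp 1 to 4, with adjusted p up to 0.345. At an unadjusted p under 0.05, 6 members were lower, namely Trib3, Herpud1, Sec61b, Ssr3, Derl1 and Sdf2l1, and 0 were higher, beside 8.64% and 7.75% of all loci. Beside these shares neither the 1 nor the 6 of 40 was read as a result about the members. With 2 libraries a prefix an exact permutation test cannot go below 0.333.

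Herpud1, an adaptor of the HRD1 ligase and a strongly stress-induced gene, came next. It measured 416, 413, 359.9 and 307 FPKM in scramble, 449 and 429 in AO228, and 188.2 and 219.96 in AO229. The AO229 libraries were far below all others and the AO228 libraries just above all controls (AO229 minus AO228 -1.11 ± 0.21, log2, SE; limma adjusted p = 0.0504). Sec61b measured 107, 95.4, 102 and 73.6 FPKM in scramble, 145 and 89.2 in AO228, and 67.9 and 65.4 in AO229 (-0.76 ± 0.26, adjusted p = 0.193 by limma). The high value of shCrebbp 1 bears on this difference.

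Ssr3, another TRAP subunit, measured 42.0, 28.7, 43.7 and 30.4 FPKM in scramble, 55.8 and 38.5 in AO228, and 26.2 and 30.1 in AO229. Derl1 measured 69.1, 80.7, 67.6 and 46.6 FPKM in scramble, 81.6 and 82.4 in AO228, and 49.7 and 57.5 in AO229. In both genes each AO229 library lay below each AO228 library while the controls spanned the gap, at log2 differences of -0.70 ± 0.27 and -0.61 ± 0.25 (SE; limma adjusted p = 0.237 and 0.268). Sdf2l1 measured 46.8, 33.9, 27.5 and 20.4 FPKM in scramble, 32.7 and 26.4 in AO228, and 14.7 and 17.8 in AO229, so here the AO229 libraries were below all others (AO229 minus AO228 -0.82 ± 0.34, limma adjusted p = 0.276). Ppp1r15a and Atf6 ran the other way, higher in AO229 by 0.46 ± 0.23 and 0.32 ± 0.20 (log2, SE; limma adjusted p = 0.358 and 0.491).

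**Figure D4:**
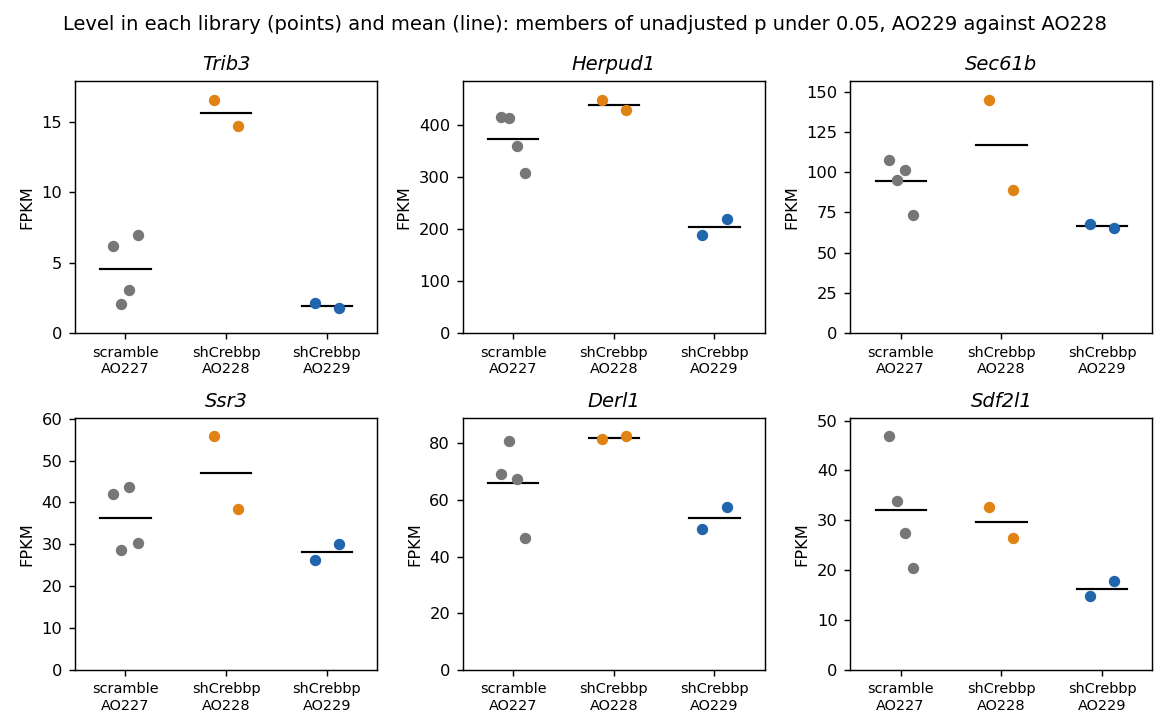
FPKM in each library (points) and mean (lines) for the 6 members with an unadjusted limma p under 0.05 between AO229 and AO228 (4, 2 and 2 libraries). In Trib3 the AO228 libraries at 14.7 and 16.6 stand above scramble, and in Herpud1 the AO229 libraries at 188.2 and 219.96 stand below it.

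Members whose window held an ERSE were lower in 9 of 9, beside 48% of all loci, with log2 differences of -0.68 to -0.04 and a median of -0.35. Of the 21 members with a window that held neither ERSE nor ERSE-II, 15 were lower and the median was -0.10, and of the 8 without a window 7 were lower with a median of -0.18. These medians are a description, since 7 of the 9 are chaperones and branch and element move together. Within the chaperones the ranges overlapped. Those with an ERSE ran from -0.68 (Hsp90b1) to -0.04 (Dnajc3). Those whose window held neither element ran from -0.73 (Dnajb9) to 0.36 (Pdia4).

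Other genes of the pathway had list medians near 0 in shCrebbp against scramble. Of 19 other ER folding genes tested 10 were lower, with a median log2 difference of -0.06, of 15 other degradation genes 8 (median -0.07), and of 23 other translocation genes 10 (0.02). At an unadjusted limma p under 0.05 these lists gave 2, 0 and 1 lower loci and none higher, beside 2.93% and 2.08% of all loci. In AO229 against AO228 the other folding genes had a median of -0.36, with 12 of 19 lower, beside 49.1% of all loci. That is near the members' median of -0.33. Against scramble, AO229 was lower for 14 of the 19, beside 47.6% of all loci. The other degradation and translocation genes had medians of -0.04 and -0.01 in AO229 against AO228. Sil1, an exchange factor for BiP, measured 31.4, 56.4, 19.4 and 32.5 FPKM in scramble and 18.9, 12.5, 19.1 and 16.7 in shCrebbp, and Sec62, a channel subunit, 33.2, 39.5, 27.0 and 28.8 FPKM and 17.7, 24.3, 21.0 and 21.1. Neither pair of groups overlapped (log2 differences -0.93 and -0.58, limma adjusted p = 0.915 for each). Fkbp2, a prolyl isomerase, differed by -0.93 with overlap, and Faf2, a degradation adaptor, by 0.33 with every shCrebbp library higher.

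Xbp1, the factor whose RNA IRE1 splices, measured 119.9, 67.6, 89.2 and 75.6 FPKM in scramble and 76.0, 65.2, 43.4 and 53.1 in shCrebbp. Scramble 1 was highest, as in 9 of the 15 chaperones, and an AO229 library lowest, as in 10 of them (log2 difference -0.56 ± 0.23 SE, limma adjusted p = 0.915, exact permutation p = 0.0857). FPKM does not tell spliced from unspliced Xbp1. Over the 16 other sensors and stress factors tested, Xbp1 among them, 11 were lower with a median of -0.08. Atf3 measured 43.3 and 53.2 FPKM in AO228 but 223 and 291 in AO229, against 89.0 to 186 in scramble, and so rose where Trib3 fell (AO229 minus AO228 2.39 ± 0.34, limma adjusted p = 0.0305).

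Most of a list of ATF4 target genes were lower in AO229 than in AO228, as Trib3 was, while Ddit3 and Ppp1r15a were not. Of 17 tested, 14 were lower, beside 49.1% of all loci, with a median log2 difference of -0.72, 9 of them at an unadjusted p under 0.05, beside 8.64% of all loci. Psat1 and Aldh18a1, which make serine and proline, passed at -1.19 ± 0.21 and -1.05 ± 0.18 (log2, SE, limma adjusted p = 0.0443 and 0.0432). Of all loci 0.613% passed as lower. The 146 loci passing in either direction became 2 to 276 with a library left out, so such calls depend on single libraries. Psat1 measured 12.1 to 15.9 FPKM in scramble, 22.9 and 31.2 in AO228, and 10.9 and 11.4 in AO229. In shCrebbp against scramble 9 of 17 were lower and the median was -0.02. Atf4 itself differed between the prefixes by -0.05 ± 0.20 (log2, SE). Ddit3 and Ppp1r15a, like Trib3 induced by ATF4 and outside this list, differed by 0.08 ± 0.25 and 0.46 ± 0.23, higher in AO229.

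**Figure D5:**
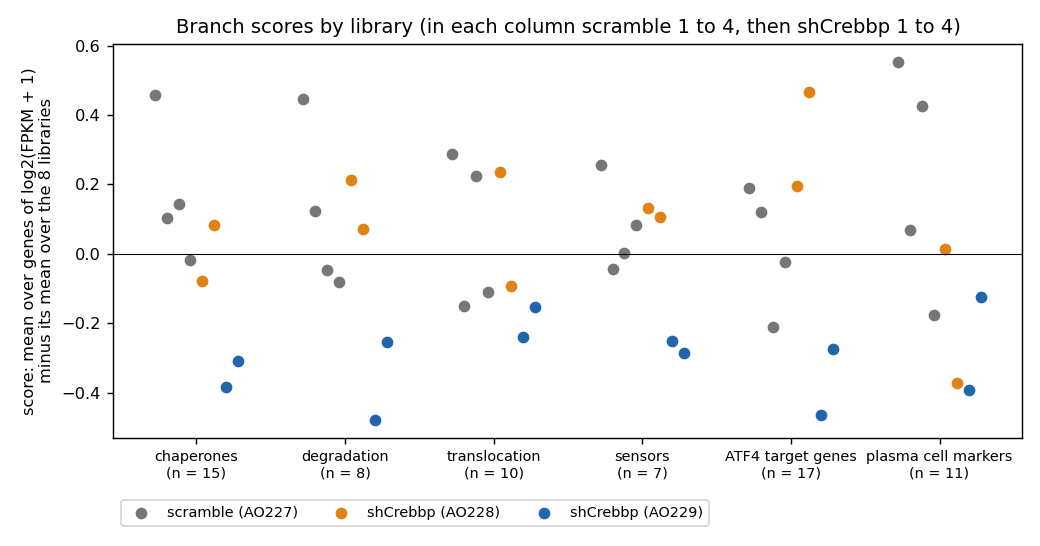
Score of each library (log2(FPKM + 1) centred on the 8 libraries and averaged over genes) for the 4 branches, ATF4 target genes and plasma cell markers, libraries in order within a column and coloured by prefix. Scramble 1 is highest for chaperones at 0.46 and for plasma cell markers at 0.55, and the AO229 libraries are lowest in all 4 branches and in ATF4 targets.

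Plasma cell markers were mostly lower in shCrebbp than in scramble, but some differed between the prefixes in opposite directions. Of 11 tested, 10 had a lower mean in shCrebbp, beside 48% of all loci, and the median log2 difference was -0.42. The summed level of the list of 12 ran from 1464 to 2723 FPKM in scramble and from 847 to 2005 in shCrebbp. Most of that sum was Igj, the immunoglobulin J chain, at 953 to 2161 and 355 to 1454 FPKM. Tnfrsf17 (BCMA) measured 10.9, 4.22, 5.45 and 3.69 FPKM in scramble and 1.56, 1.21, 1.98 and 3.64 in shCrebbp, and the groups just failed to overlap. The defining markers Sdc1 and Prdm1 were not at 0, at 6.88 to 28.4 and 3.06 to 16.5 FPKM over the 8 libraries, with scramble 1 highest for Sdc1. In AO229 against AO228, 7 of the 11 were lower, beside 49.1% of all loci, with a median of -0.26. Irf4 and Tnfrsf13b were higher in AO229, by 1.28 and 1.32 (log2; limma adjusted p = 0.0497 and 0.0492). Pou2af1 was lower there, at -1.099 (limma adjusted p = 0.0479). Of all loci 0.666% passed as higher and 0.613% as lower. Macrophage genes were lower for 4 of 6 tested, with a median log2 difference of -0.50, 2 of them at an unadjusted p under 0.05, beside 2.93% of all loci. Ly6c2, a monocyte surface gene, measured 12.4, 13.5, 19.996 and 26.3 FPKM in scramble and 8.58, 5.12, 8.56 and 4.16 in shCrebbp, with no overlap (log2 difference -1.32). Emr1 (F4/80) measured 4.13, 5.97, 7.84 and 5.75 FPKM in scramble and 0.996, 1.01, 4.26 and 2.36 in shCrebbp, where shCrebbp 3 just overlapped the lowest control (-1.23). Lyz2, low throughout, and Ctss, among the highest of the list, were higher on average, by 0.45 and 0.07. Of 3 T and NK cell genes tested 1 was lower, the T cell kinase gene Lck, at 18.02 to 36.7 FPKM in scramble and 14.8 to 20.8 in shCrebbp (-0.79). The T cell genes Cd3d and Cd3g were higher on average, by 0.82 and 0.07, so the list had no common direction. The part of plasma cell, macrophage and T cell genes in the lower chaperone levels was not tested. B cell markers had a median log2 difference of 0.07 in shCrebbp against scramble and of 0.43 in AO229 against AO228.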

How the data were processed

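RNA was extracted with Trizol and libraries were made with a stranded total RNA kit, per the labels' protocols. CASAVA 1.8, TopHat2, Cufflinks and the build mm10 were used, per the submitters' processing notes. The authors deposited 1 table of FPKM per locus and library, a unit inferred from the values and locus identifiers. Of 13 sample columns 8 matched a sample by name, 5 were not used, and 1 emptied line was left out. FPKM gives no counts, so precision came from replicates alone.

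Values were taken as log2(FPKM + 1) and differences are on that scale, which understates those of low genes. Loci whose mean reached 1 FPKM were fitted with limma 3.58.1 in R 4.3.3 (trended prior, two-sided), without covariates, with Benjamini-Hochberg adjustment over all 11417 loci. A second fit held 1 coefficient for each name prefix. Single genes were also compared by exact permutation (70 divisions of the 8 libraries). Scripts were tested on simulated data.

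Values in every library are given for the 3 members of smallest p in each branch, the 2 of smallest p between prefixes, and members without overlap. They are also given for 8 anchors (Hspa5, Hsp90b1, Dnajb9, Ern1, Atf6, Eif2ak3, Atf4, Ddit3) and for Xbp1. Of the loci of smallest p in the other lists only some are named, with values or with a difference alone. Further genes were named after their values were seen. Members and lists were chosen with earlier results of these data known. Of the 40 member loci, 7 also overlap another coding gene on their strand and 12 on the opposite one. Alternatives covered pseudocounts, filters, scaling, priors, weights, summed loci, single prefixes and each library left out.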

Additional observations from a re-analysis of the deposited data

Results flagged for a closer look

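Within single groups of 4 libraries, 4 member values stood far from the other 3. These were Dnajc3 in shCrebbp 1 at 47.3 FPKM, where the others lay at 26.2 to 27.0, Pdia4 in shCrebbp 2 at 1006.5 FPKM, Hyou1 in scramble 1 at 46.5 FPKM, where the others lay at 32.5 to 34.2, and Edem1 in scramble 1 at 55.5 FPKM, where the others lay at 31.1 to 33.2. Among independent, normally distributed values about 1 in 20 groups would hold such a value, or 4 of the 80 member groups examined. The groups share the same 8 libraries, so the count cannot say whether chance gave these values. The shCrebbp libraries differed by name prefix in Trib3, at a log2 difference of -2.49 for AO229 minus AO228 (limma adjusted p = 0.0443).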

How the results depend on the processing

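No paired analysis was possible because no label pairs a scramble with an shCrebbp library. For shCrebbp against scramble the count of members passing stayed 0 in all settings run. Over all loci it was 3 with no filter, 1 with AO228 libraries alone, 3 with AO229 alone, and 0 to 2 with a library left out. Members lower at an unadjusted p under 0.05 (9) numbered 14 with library weights (4.17% of all loci), 5 with AO228 alone (5.62% of all loci), 14 with AO229 alone (5.73%), and 5 to 11 with a library left out (5 without scramble 1 or shCrebbp 4). With AO228 alone 1 member was higher (4.07%). Members lower without overlap (6) numbered 3 after quantile normalization (1.59% of all loci), 18 with AO229 alone (11.3%), and 6 to 9 with a library left out. Members of lower mean (33 of 40) ranged from 25 with AO228 alone to 40 with AO229 alone, and from 28 to 38 with a library left out. The sensor median of -0.10 was -0.31 with weights and -0.30 with AO229 alone; the degradation median of -0.24 was 0.01 with AO228 alone, with 4 of 8 members lower. Branch medians stayed below 0 with each single library left out.

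Signs turned for Atf4 after quantile normalization (0.0033), for Derl1 and Ssr3 with weights (-0.038 and -0.23) and AO229 alone (-0.27 and -0.33), for Trib3 in the same (-0.36 and -0.81), for Eif2ak3 with AO229 alone (-0.16), and for Herpud1, Sec61b and Ern1 with AO228 alone (0.24, 0.28 and 0.19). Leaving out a library also turned Derl1 (-0.12 to 0.17), Ssr3 (-0.19 to 0.17), Trib3 (-0.0085 to 0.88), Eif2ak3 (-0.066 to 0.17), Sec61b (-0.34 to 0.034) and Ern1 (-0.23 to 0.064). The causes were not tested.

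For AO229 against AO228 the 146 loci passing became 29 with no filter, 240 at a mean of at least 5 FPKM, 2 without a trended prior, 495 with weights, and 2 to 276 with a library left out. Members passing (1) numbered 2 (Trib3 and Herpud1) with a pseudocount of 0.1, the filter at 5, quantile normalization, weights and summed loci, 0 with no filter or no trend, and 0 to 2 with a library left out. Members lower at an unadjusted p (6) ranged from 2 to 7, and higher (0) from 0 to 1, with a library left out, and 1 was higher with no filter. Unadjusted loci in shCrebbp against scramble split 335 lower to 238 higher, 303 to 298 after quantile normalization and 398 to 515 with no filter.

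Absolute depth is unknown, labels do not give animals, and Crebbp did not separate the groups. Merged or long loci limit the values of Calr, P4hb, Pdia4, Atf4, Spcs1 and Ppp1r15a. The loci of Hsp90b1, Derl3 and Hspa5 run 71334, 25688 and 22365 bases beyond their genes and over a gene on the opposite strand (Ttc41, Smarcb1 and Rabepk), and those of Manf, Dnajb11 and Ssr4 overlap another coding gene on their own strand. The alternatives on counts at unadjusted p, on overlap and on members of lower mean were chosen after seeing the data.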
